A study of Mus musculus with 16 samples.

Results

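The 6 genes described here encode basic helix-loop-helix (bHLH) transcription factors of the decision between neural progenitor and neuron. Hes3, Hes5 and Hes6 belong to the Hes family, and Neurog2, Neurod1 and Nhlh1 to the proneural and neuronal group. They were found by their gene symbols, each on 1 row, among the 15876 genes measured in 16 RNA-seq libraries. All embryos were of the CD1 mouse strain, with no allele or treatment named, and each library was 1 region of the head at 1 embryonic day (E). At E8.5 the libraries were mesoderm and 3 neural epithelia, which were caudal brain, floor plate and non-floor plate. Those of E9.5 were cranial mesenchyme, maxillary arch, mandibular arch and epidermal ectoderm. The E10.5 libraries comprised 3 of neural epithelium, titled lateral prominence, central and dorsal control, 1 of olfactory pit and 4 of facial tissue (medial nasal, lateral nasal, maxillary and mandibular). The number of embryos behind a library is not given in the sources used here. No region was repeated at a stage, so a difference between single libraries has no replicate check and no p-value.

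Progenitors of the neural tube and of the olfactory placode choose between dividing and becoming neurons through Notch signalling. A cell with high proneural bHLH activity makes the ligand Dll1, which activates Notch receptors on its neighbours. The cleaved receptor joins the DNA-binding protein Rbpj and switches on Hes genes, whose products repress proneural genes and hold the neighbour as a progenitor. Hes5 is a classical Notch target of neural progenitors. Hes3 is known from the early neural plate and the border of midbrain and hindbrain. Hes6 differs from the others in that it is switched on by proneural factors, opposes Hes1 and favours neuronal differentiation. Neurog2 starts neurogenesis in the dorsal forebrain and several ganglia, while Neurod1 and Nhlh1 act later, in cells that are leaving the cell cycle or have become neurons.

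The promoters of 3 members are shown because the Hes genes are known to be read by different activators, Notch through Rbpj for Hes5 and proneural bHLH factors for Hes6. RefSeq promoter sequences (mouse build GRCm38.p6, 250 bases before to 50 after a start) were found for 5 of the 6 members, all but Hes3. Hes5 is shown for chr4:154960673-154960972 on the plus strand, with matches to the Rbpj site GTGGGAA on either strand in capitals. Hes6 is shown for its second annotated start, chr1:91413173-91413472 on the minus strand, and Nhlh1 for chr1:172057547-172057846 on the minus strand, with E-boxes in capitals. An E-box, CANNTG, is the site of bHLH activators.
Hes5: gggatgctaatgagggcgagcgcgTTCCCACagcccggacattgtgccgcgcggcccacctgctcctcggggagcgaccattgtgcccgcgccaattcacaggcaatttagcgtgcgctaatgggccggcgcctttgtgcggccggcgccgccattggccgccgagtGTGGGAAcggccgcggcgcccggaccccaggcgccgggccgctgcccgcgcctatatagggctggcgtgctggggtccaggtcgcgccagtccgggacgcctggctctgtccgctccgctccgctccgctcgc
Hes6: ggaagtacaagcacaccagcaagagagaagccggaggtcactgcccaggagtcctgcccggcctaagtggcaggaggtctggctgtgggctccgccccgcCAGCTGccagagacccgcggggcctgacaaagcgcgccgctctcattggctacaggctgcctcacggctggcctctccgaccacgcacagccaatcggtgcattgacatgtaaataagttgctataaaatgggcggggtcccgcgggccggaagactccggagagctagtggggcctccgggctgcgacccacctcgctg
Nhlh1: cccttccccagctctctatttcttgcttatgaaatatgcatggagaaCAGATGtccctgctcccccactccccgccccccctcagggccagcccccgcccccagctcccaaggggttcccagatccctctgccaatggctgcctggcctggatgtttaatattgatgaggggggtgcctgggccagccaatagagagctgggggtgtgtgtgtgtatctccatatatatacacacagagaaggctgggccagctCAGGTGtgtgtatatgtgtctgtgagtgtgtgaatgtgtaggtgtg

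Hes5 held 2 matches to GTGGGAA, at 226 and 83 bases before the start, and none of the other 4 members with a sequence held one. At least 1 match was found in 6.4% of 32851 mouse promoters of the same length, and 2 or more in 0.26%. The second start of Hes6 held the E-box CAGCTG 150 bases before the start. The first start of Hes6, whose sequence is not shown, held 3 E-boxes, at 220, 171 and 164 bases before it. Hes5 held 1 E-box too, 194 bases before its start, which is left in small letters above. An E-box was thus present in both Hes genes and does not set Hes6 apart from Hes5. Nhlh1 held CAGATG 203 bases before the start and CAGGTG 4 bases after it, and Neurod1 held CATATG 242 bases before its RefSeq start. Neurog2 held no CANNTG in this window. E-boxes were found in 72.3% of all promoters, so their presence in a member is a description of the sequence. In the GRCm38 annotation (GENCODE M21), Hes5 spans chr4:154960923-154962371 on the plus strand and Hes6 chr1:91411483-91414038 on the minus strand. Nhlh1 spans chr1:172052292-172057573 on the minus strand, Neurog2 chr3:127633135-127635631 on the plus strand and Hes3 chr4:152285972-152291662 on the minus strand. No Neurod1 transcript of that annotation starts within 50 bases of the RefSeq start used above. Neurod1, at chr2:79452521-79456751 on the minus strand, overlaps Cerkl on the same strand and Gm26755 on the opposite one, and Hes5 overlaps Gm20421 on the opposite strand. Whether strand was used in counting is not stated, so reads of such pairs may not have been told apart. Neither Gm26755 nor Gm20421 was found among the measured genes. Cerkl was at its lowest value in 13 of 16 libraries and reached 1.17 in the olfactory pit and 1.60 in the library titled central.

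The deposited values were ratios, each gene divided by its own median over the 16 libraries, and a level here says how many times higher a value was than the lowest of that gene. In 8794 genes, all 6 members among them, 2 or more libraries shared the lowest value. That shared value is called the floor here, and a level of 1 means a gene at the floor and not a gene shown to be absent. Levels compare libraries for 1 gene and never 1 gene with another. Libraries differed in how often genes sat at the floor, from 50.6% of the 8794 genes in the olfactory pit to 81.5% in the E10.5 mandibular arch. Folds are given as deposited and, in brackets, relative to the median gene, which removes the shift of a whole library. In dissected tissue, fewer cells of a type and less RNA per cell cannot be told apart.

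Some labels call for care with the members. In the library labelled medial nasal prominence 1 of 11 facial mesenchyme markers was above its lowest value and none reached a level of 2. Of 10 neural progenitor genes 7 reached that level, with Fabp7 at 56.4 and Nes at 43.2, while Pax6, Sox3 and Rfx4 did not. That library is called here the library labelled medial nasal, and results that rest on it are given without it too. The libraries titled central and dorsal control carry each other's abbreviation in the headings of their deposited columns. The titles are used, and the labels alone do not say which name is right for single-library values. Olig2, a gene of ventral progenitors, was higher in the library titled dorsal control. Wnt8b, a signal of the dorsal and medial forebrain wall, was above the floor only in the one titled central. Which region each library holds was not tested, so neither title should be read as a position. Tests between tissue classes are not touched by an exchange of these titles. The olfactory pit had 9 of 9 measured markers of surface epithelium and 9 of 9 of olfactory placode above the lowest value, among them Epcam at 64.2 and Eya1 at 23.4. It also had 3 of 11 facial mesenchyme markers above the lowest value.

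Hes3 was a gene of a single region. Its level was 34.7 in E8.5 caudal brain, 1.41 in E8.5 mesoderm and 1 in each of the other 14 libraries. The floor plate and the non-floor plate epithelium of the same stage were at the floor, so the fold over either was at least 34.7 (at least 28.5 over the non-floor plate epithelium, relative to the median gene). Genes that were at least 2-fold higher in caudal brain than in the non-floor plate epithelium, with a level of 2 or more, made up 4.56% of the 8794 floor genes, and Hes3 and Hes5 were the members among them. Over the floor plate the share was 7.13%, and Hes3 was the member counted. All 3 E10.5 neural libraries and the olfactory pit stood at the floor for Hes3.

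The genes most like a member were taken as the 5 with the highest Pearson correlation of log2 level over the 16 libraries, among 5155 genes that reached a level of 5. For Hes3 they were Irx2 (0.995), Gm13415 (0.995), Pax5 (0.993), Gbx2 (0.99) and En1 (0.981). Pax5, Gbx2 and En1 are patterning genes of the midbrain and hindbrain, and Irx2 is a homeobox gene. Pax5 stood at 30.2 and En1 at 25.8 in caudal brain, and both were, like Hes3, above the floor in E8.5 mesoderm as well, Pax5 at 2.10 and En1 at 2.61. Such correlations rest on 1 high library, since a gene above the floor in only that library gives a value near 1 whatever its role. Wnt1 stood at 16.01 and En2 at 3.94 in caudal brain, and both were at the floor in the 2 other E8.5 neural libraries. All 10 listed genes of the border of midbrain and hindbrain reached a level of 2 in caudal brain, as did 20.8% of the floor genes. Not all were restricted to it. Pax2 stood at 12.7 in floor plate and 15.9 in the non-floor plate epithelium. Fgf8 was higher in E9.5 epidermal ectoderm, at 4.84, than in caudal brain, at 2.33. The library titled dorsal control had 4 of the 10 at a level of 2 or more, with Wnt1 at 4.53.

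**Figure D1:**
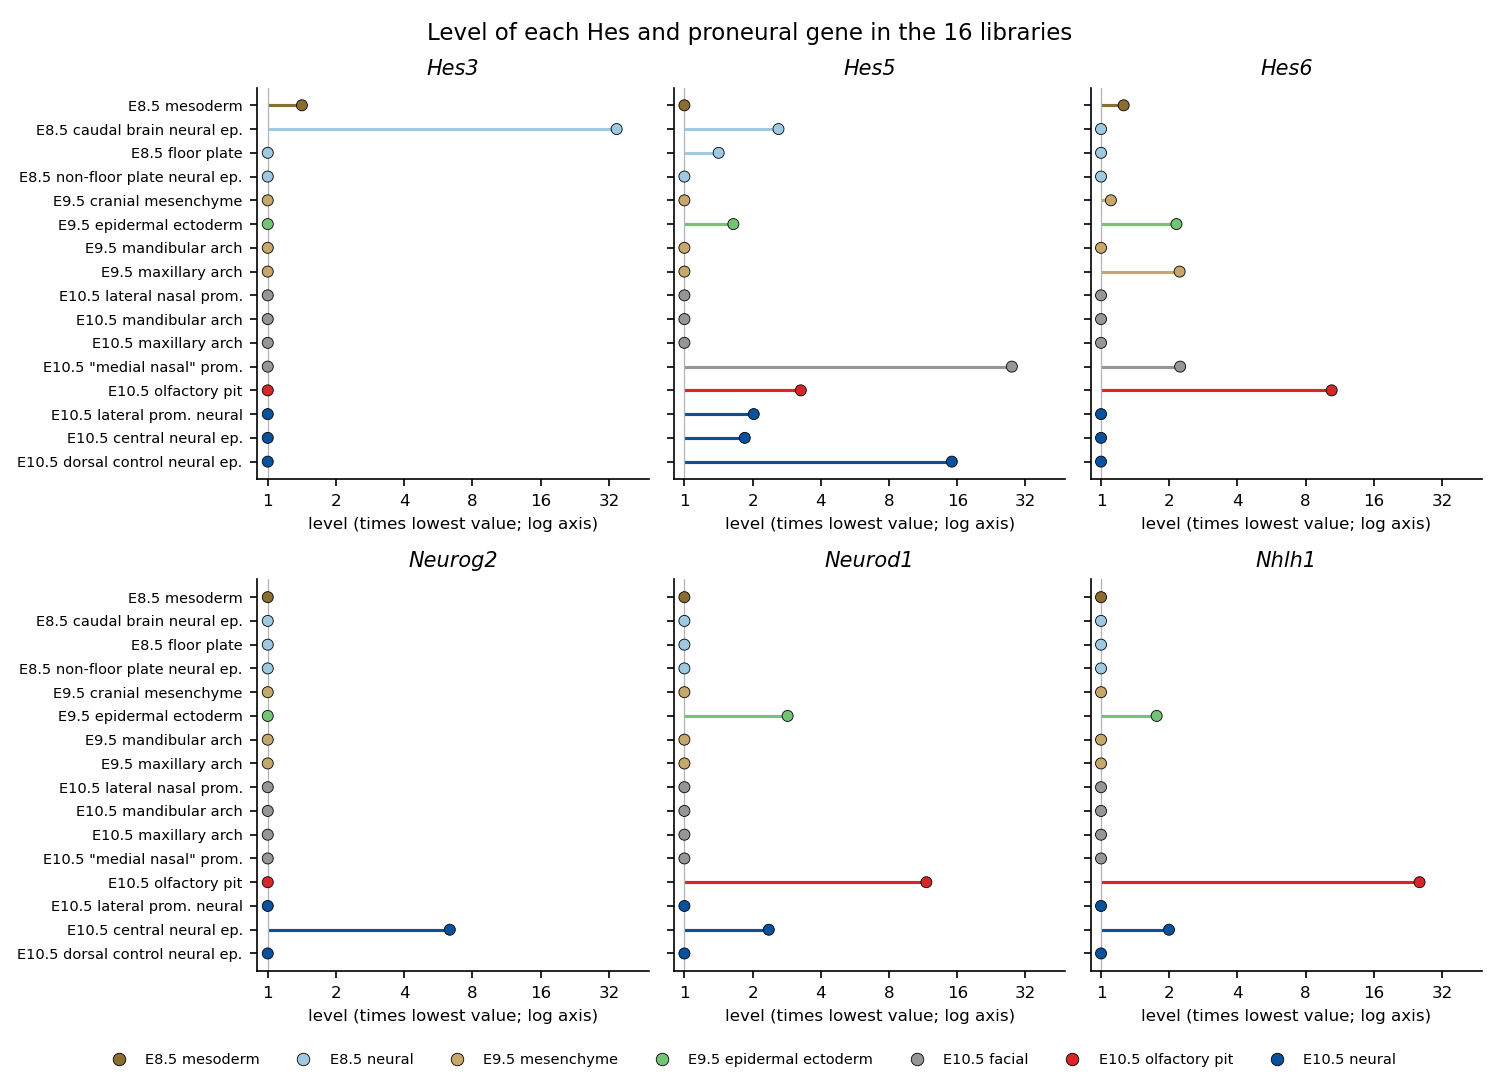
Level of each of the 6 genes in the 16 libraries, 1 panel per gene, as times its lowest value on a log axis, with the points coloured by tissue class. Hes3 stands out in E8.5 caudal brain at 34.7, Neurog2 in the library titled central at 6.36, and Neurod1 and Nhlh1 in the olfactory pit at 11.7 and 25.4.

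Hes5 was the most widely measured member, above its lowest value in 8 libraries. It stood at 27.9 in the library labelled medial nasal, 15.1 in the library titled dorsal control and 3.26 in the olfactory pit. Lower levels were 2.60 in caudal brain, 2.02 in lateral prominence, 1.85 in the library titled central, 1.64 in E9.5 epidermal ectoderm and 1.42 in floor plate. The remaining 8 libraries were at the floor, namely the non-floor plate epithelium, E8.5 mesoderm, all 3 E9.5 mesenchymal libraries and the other 3 E10.5 facial libraries. All 3 E10.5 neural libraries were thus above the floor for Hes5, and 2 of the 3 at E8.5 were.

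Within the E10.5 neural epithelium Hes5 was uneven. The library titled dorsal control was 7.49-fold (6.86-fold) above lateral prominence, a size that 9.29% of the floor genes reached in that direction. Lateral prominence and the library titled central differed by less, at 2.02 and 1.85. As deposited, the level in caudal brain, 2.60, lay above both of these, so the E8.5 and E10.5 neural libraries overlapped. Relative to the median gene, the scale of the tests, the order turned, with 2.83 in caudal brain, 2.95 in the library titled central and 3.05 in lateral prominence, and the classes did not overlap. The library labelled medial nasal was 1.84-fold (1.46-fold) above the library titled dorsal control, and without it the latter was the highest of the remaining libraries.

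The genes most like Hes5 were Plk3 (0.956), Rundc3a (0.946), Stmn4 (0.937), Celf3 (0.934) and Cxxc4 (0.931). Each had its highest level in the library labelled medial nasal. Without that library the correlations ran from 0.87 to 0.912. Stmn4 is a microtubule-destabilizing protein of neurons, Celf3 an RNA-binding protein of the nervous system and Cxxc4 an inhibitor of Wnt signalling. None of the 5 was among the 5 with the highest Spearman correlation, of which Nrarp, a Notch target and feedback inhibitor, was 1.

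Hes6 had its highest level in the olfactory pit, at 10.4. The next were the library labelled medial nasal at 2.23, the E9.5 maxillary arch at 2.22 and E9.5 epidermal ectoderm at 2.15, which cannot be ordered without repeats. E8.5 mesoderm stood at 1.26 and cranial mesenchyme at 1.11. All 6 neural libraries of E8.5 and E10.5 were at the floor. The library labelled medial nasal was at least 2.23-fold (at least 1.78-fold) above the one titled dorsal control, a comparison in which 10.4% of the floor genes were 2-fold or more higher. The pit was 4.84-fold (5.28-fold) above epidermal ectoderm, the other surface tissue, and at least 10.4-fold (at least 7.42-fold) above the library titled central.

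The genes most like Hes6 were Gcnt2 (0.933), Gm24457 (0.91), Abcg1 (0.904), Runx1 (0.9) and Ndrg4 (0.899), all highest in the olfactory pit. Runx1, a transcription factor known from blood and from sensory neurons, stood at 10.6 there and was at the floor in 14 libraries. Without the pit the correlations of the 5 genes with Hes6 fell to between 0.504 and 0.699. Markers of red blood cells were present in the pit too, with 5 of 7 above the lowest value. Their part in the level of Runx1 was not tested.

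Neurog2, the forebrain proneural gene, was above the floor in 1 library only. It stood at 6.36 in the E10.5 library titled central and at 1 in the other 15, the olfactory pit and the other 2 E10.5 neural libraries included. The fold over lateral prominence and over the library titled dorsal control was at least 6.36, and relative to the median gene at least 6.74 and at least 7.36. A rise of 2-fold or more to a level of at least 2 was seen in 4.11% of the floor genes over lateral prominence and in 3.68% over the library titled dorsal control.

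Gm16143, Gm22506 and Wnt8b had the same pattern as Neurog2, above the floor in that library alone, with a correlation of 1. Rspo3 (0.975) and Erbb4 (0.904) followed. A gene above the floor in that library alone gives a correlation of 1 whatever its role. Neurog2 did not vary over the other 15 libraries, so no correlation without that library can be given. Wnt8b and Rspo3 are signals of the dorsal and medial wall of the forebrain, and they stood at 11.1 and 27.3 in the library titled central. Eomes, a transcription factor of intermediate progenitors downstream of Neurog2, was at 3.55 in that library, at 1.15 in lateral prominence and at the floor in the other 14. Tbr1, a factor of the first cortical neurons, was at 1.93 in the library titled central, at 1.77 in lateral prominence and at the floor elsewhere.

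Neurod1 and Nhlh1 were above the floor in the same libraries. Neurod1 stood at 11.7 in the olfactory pit, 2.85 in E9.5 epidermal ectoderm and 2.36 in the library titled central. Nhlh1 stood at 25.4, 1.76 and 1.99 in the same 3 libraries. Both were at the floor in the other 13, which include all 3 E8.5 neural libraries, lateral prominence, the library titled dorsal control and the library labelled medial nasal.

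The pit was 4.10-fold (4.47-fold) above epidermal ectoderm for Neurod1 and 14.5-fold (15.8-fold) for Nhlh1. With Hes6, 3 of the 6 members were at least 2-fold higher in the pit than in epidermal ectoderm, against 7.73% of the floor genes. Over the library titled central the pit was 4.96-fold (3.53-fold) higher for Neurod1 and 12.8-fold (9.09-fold) for Nhlh1, against 18.1% of the floor genes. Neurog2 went the other way, at the floor in the pit and at 6.36 in the library titled central.

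Nhlh1 was the gene most like Neurod1 (0.967), and Neurod1 was also on the list of Nhlh1. Without the pit the correlation of these 2 genes was 0.977 over 15 libraries, but both were at the floor in 13 of them. The value rested on epidermal ectoderm and the library titled central, which went in opposite order for the 2 genes. Neurod1 stood there at 2.85 and 2.36, and Nhlh1 at 1.76 and 1.99. After Nhlh1, the list of Neurod1 held Espn (0.948), Cpm (0.947), Fgf9 (0.947) and Runx1 (0.947). That of Nhlh1 held Thsd7b (0.977), Fam107a (0.976), Apoc1 (0.971) and Kif19a (0.965). All 8 of these had their highest level in the olfactory pit, from 5.56 for Cpm to 10.6 for Runx1. By Spearman correlation the lists of both members held Nhlh2, Neurog1, Cdh1 and Dmrt3.

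The members that reached a level of 2 differed between libraries, with some members shared. In the olfactory pit 4 of 6 members reached a level of 2 (Hes5, Hes6, Neurod1 and Nhlh1), where 25.1% of the floor genes did. In the library titled central 2 did (Neurog2 and Neurod1), where the share was 10.51%. In caudal brain 2 did (Hes3 and Hes5), with a share of 20.8%, and in epidermal ectoderm 2 (Hes6 and Neurod1), with 23.6%. In the library labelled medial nasal they were Hes5 and Hes6, with 23.1%. Hes5 alone reached 2 in lateral prominence (10.4%) and in the library titled dorsal control (16.5%), and Hes6 alone in the E9.5 maxillary arch (23.6%). No count was tested against its share. Outside the olfactory pit and the library titled central, the counts among 6 members lay near the shares and are not read as a result.

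Each proneural gene was then set beside each Hes gene. Hes5 was above the floor in all 3 libraries that had any proneural member above it, and in 5 that had none. Its 2 highest libraries, at 27.9 and 15.1, were at the floor for all 3 proneural members. Over the 16 libraries the Pearson correlation of log2 levels was 0.112 for Hes5 with Neurod1, 0.131 with Nhlh1 and -0.009 with Neurog2. Without the library labelled medial nasal and the one titled dorsal control the first 2 became 0.685 and 0.673 over 14 libraries. Those 2 libraries were left out because their Hes5 levels lay farthest from the median. Among the 14 the pit was highest for Hes5, Neurod1 and Nhlh1, and no value without the pit was computed. Without the library labelled medial nasal alone the first 2 were 0.269 and 0.279 over 15 libraries. Over the 7 neural and pit libraries they were 0.07 and 0.093.

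Hes6 was above the floor together with Neurod1 and Nhlh1 in the olfactory pit and in epidermal ectoderm, but not in the library titled central. It was also above the floor in 4 libraries that had no proneural member, among them the library labelled medial nasal at 2.23 and the E9.5 maxillary arch at 2.22. Its correlation was 0.831 with Neurod1 and 0.864 with Nhlh1 over 16 libraries, with Spearman values of 0.409 and 0.372. Without the pit alone the Pearson values were 0.303 and 0.207 over 15 libraries, so most of the relation rested on the pit. Without the pit and the library labelled medial nasal they were 0.428 and 0.313. Over the 7 neural and pit libraries, where the pit was the only one with Hes6 above the floor, they were 0.939 and 0.977. Hes6 and Neurog2 were never above the floor together (-0.135), with Hes6 above it in 6 libraries and Neurog2 in 1. Hes3 was above the floor in 2 libraries and shared neither with a proneural member, with correlations from -0.12 to -0.073. With so few libraries above the floor, a lack of overlap is likely in any case and is not read as a result. These 9 correlations describe libraries that share the floor and the division by the median, and they carry no test.

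**Figure D2:**
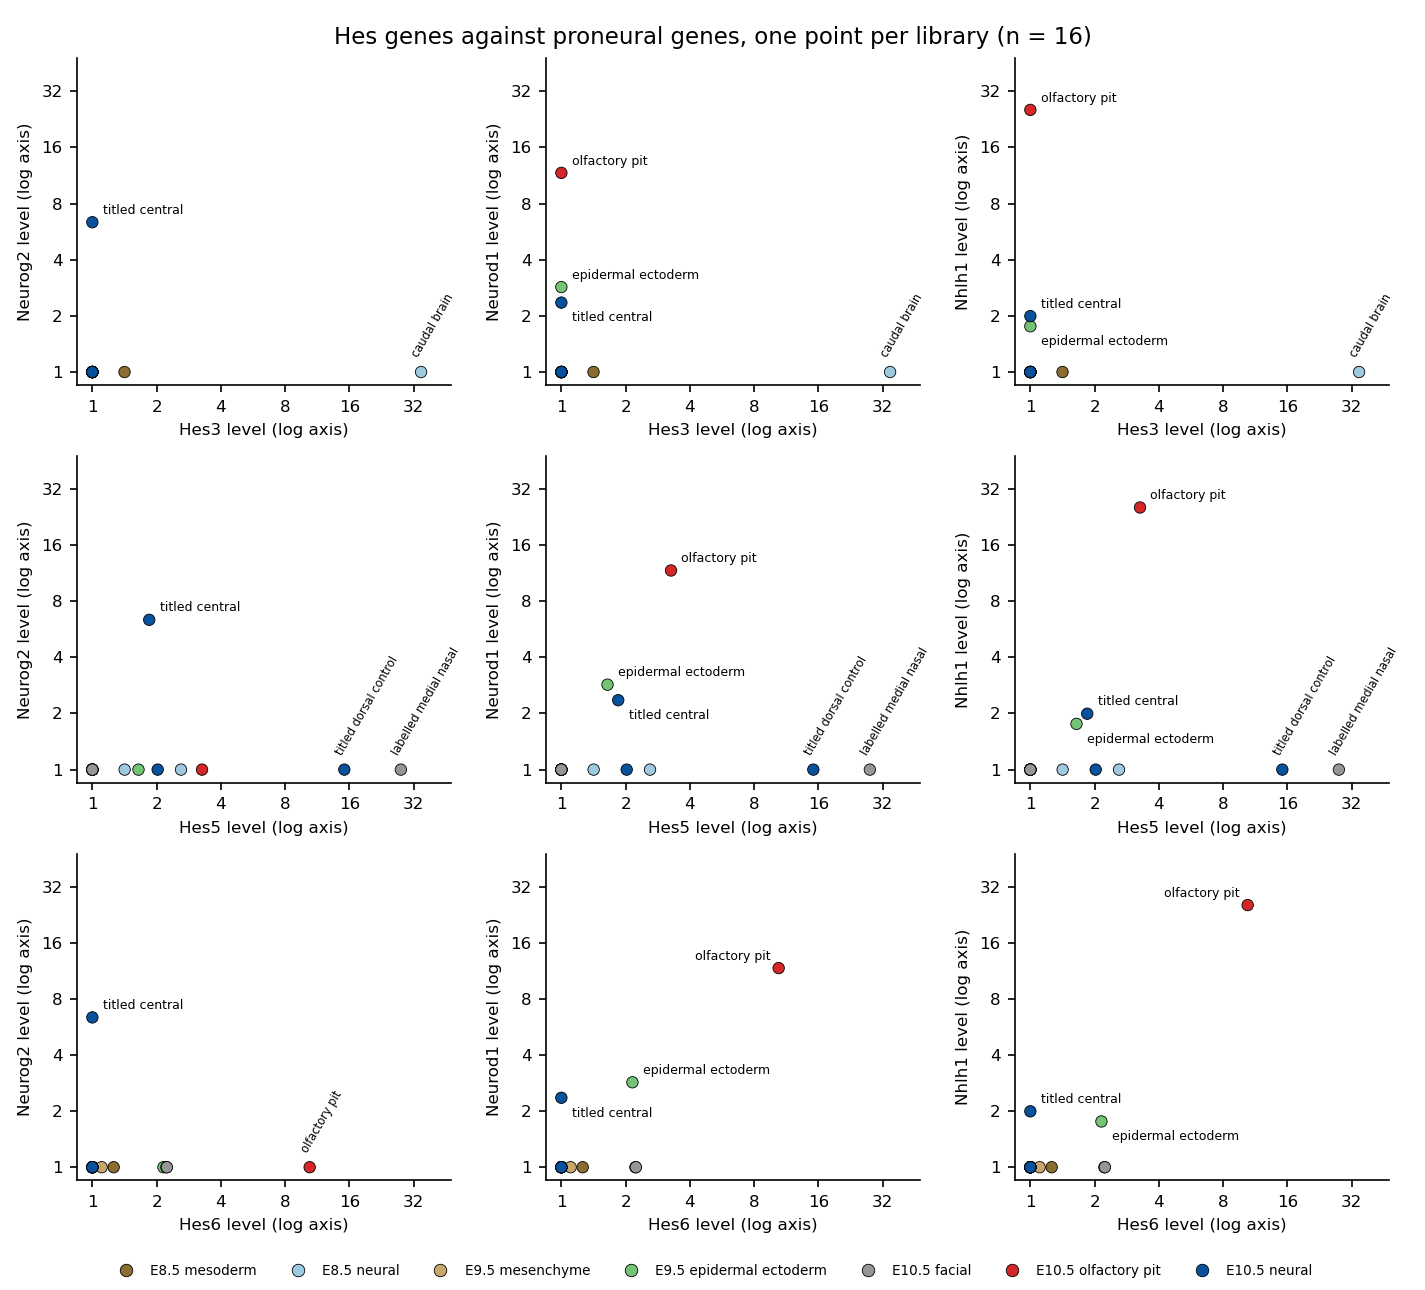
Level of each proneural gene (vertical, log axis) against the level of each Hes gene (horizontal, log axis), 1 point per library, coloured by tissue class, with 16 libraries in each panel and many points stacked at 1 on both axes. The olfactory pit lies high on both axes for Hes6 with Neurod1 and with Nhlh1, and the highest Hes5 libraries, at 15.1 and 27.9, lie at the floor of all 3 proneural genes.

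Differences between tissue classes were tested with limma on log2 ratios relative to the median gene, and a gene entered only if 3 or more libraries of the comparison were above its floor. Hes5 was the only member that met this filter. A class holds different regions and no repeats, so the error is the spread between regions. In the E10.5 neural class Hes5 levels were 1.85, 2.02 and 15.1, and in the E8.5 neural class 1, 1.42 and 2.60. The difference was 1.68 on the log2 scale with a standard error of 0.81, and it did not pass (limma, Benjamini-Hochberg adjusted p = 0.18). Of 10967 genes tested, 15.1% passed in either direction, 730 higher and 926 lower at E10.5. On the values as deposited 285 were higher and 1713 lower.

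The olfactory pit, a single library assumed to vary like the neural ones, had a Hes5 level of 3.26. Its log2 difference from E10.5 neural epithelium was -0.62 with a standard error of 1.15 (limma, adjusted p = 0.795), where 1.77% of genes passed. Without the library titled dorsal control the difference was 0.31. Against E8.5 neural epithelium the difference was 1.06 with a standard error of 1.15 (limma, adjusted p = 0.81), where 0.429% passed. A difference of either sign between the pit and the neural classes was within these errors.

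Between E10.5 neural epithelium and the 4 E10.5 facial libraries, Hes5 differed by 0.51 with a standard error of 1.16 (limma, adjusted p = 0.901). In that comparison 0 of 10184 genes passed, 0.0% in background, and 1043 had an unadjusted p under 0.05. Without the library labelled medial nasal, 583 of 9512 genes passed, and the Hes5 difference was 1.49 (limma, adjusted p = 0.243). The 3 remaining facial libraries were all at the floor for Hes5 and the 3 neural ones all above it.

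The other 5 members were above the floor in 1 or 2 of the 7 neural and pit libraries, and none entered these fits unless the filter was dropped or all 16 libraries were fitted together. The spread in either is made largely of floor values, so the p-values depend on the floor. Hes6 was at the floor in every neural library, so with no filter its error held no measured spread of Hes6. The p-values for the pit below therefore add no support to the pit levels already given. With no filter Hes6 and Nhlh1 passed for the pit against E10.5 neural epithelium (limma, adjusted p = 0.0131 and 0.0235), and Neurod1 did not (0.0695, but 0.0314 as deposited). Against E8.5 neural epithelium, where all 3 genes were at the floor in every library, the adjusted p-values were 0.00895, 0.0141 and 0.0434. The pit level over that floor was 10.4 for Hes6, 25.4 for Nhlh1 and 11.7 for Neurod1. Neurog2 and Hes3 did not pass in any of these comparisons with no filter, with adjusted p-values from 0.227 to 0.994. Of all genes 2.52% passed with no filter for the pit against E10.5 neural epithelium and 1.59% against E8.5. In one fit over all 16 libraries Hes6, Neurod1 and Nhlh1 met the filter, and Hes3 and Neurog2 did not. Neurod1 and Nhlh1 were above the floor in 3 libraries, the pit among them, so they met it only with the pit counted. There the pit against E10.5 neural epithelium gave adjusted p-values of 0.0165 for Hes6, 0.00644 for Nhlh1 and 0.0505 for Neurod1 (limma; 0.00248 as deposited for the last), where 0.599% of genes passed. Against E8.5 they were 0.00448, 0.0012 and 0.00887, where 0.747% passed. Between E10.5 neural epithelium and the E8.5 neural or the facial class, none of the 3 genes passed in that fit (limma, adjusted p from 0.215 to 0.911).

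The Notch pathway genes around Hes5 were read from lists. Of the ligands 1 of 3 tested was higher in E10.5 than in E8.5 neural epithelium, and of the receptors also 1 of 3, where 6.66% of all genes tested were higher. The ligand was Dll1, with levels of 5.33 to 14.5 against 1.61 to 3.42, a 4.53-fold difference (limma, adjusted p = 0.0353). The receptor was Notch1, at 12.1 to 29.3 against 1.81 to 5.61, 6.87-fold (adjusted p = 0.0132). Among 18 tested modulators 2 were higher, Nrarp at 4.56-fold (adjusted p = 0.0301) and Adam10, the protease that starts Notch cleavage, at 2.52-fold (adjusted p = 0.0238). On the values as deposited Notch1 still passed, while Dll1, Nrarp and Adam10 had adjusted p-values of 0.0558, 0.0553 and 0.059. The median log2 difference was 1.25 for the tested ligands, 0.08 for the receptors and 0.35 for the modulators, beside 0.04 for all genes tested.

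The 2 libraries with most Hes5 were also the highest for Notch1, Dll1 and Nrarp. The library labelled medial nasal stood at 49.8 for Notch1, 20.6 for Dll1 and 13.1 for Nrarp, and the library titled dorsal control at 29.3, 14.5 and 6.56. The olfactory pit, with Hes5 at 3.26, stood at 11.1, 4.0 and 3.41. Lateral prominence, with less Hes5 at 2.02, was higher for each, at 12.4, 7.57 and 3.93. The library titled central, with Hes5 at 1.85, stood at 12.1, 5.33 and 3.18. Below the 2 highest libraries the order was thus not that of Hes5. Jag1, another ligand, was at the floor in the library titled dorsal control. The pit had the highest level of Jag2, a ligand, at 3.12, and of Mfng, which modifies Notch receptors, at 15.0. The E10.5 facial libraries other than the one labelled medial nasal were at the floor for Hes5, Dll1 and Nrarp.

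**Figure D3:**
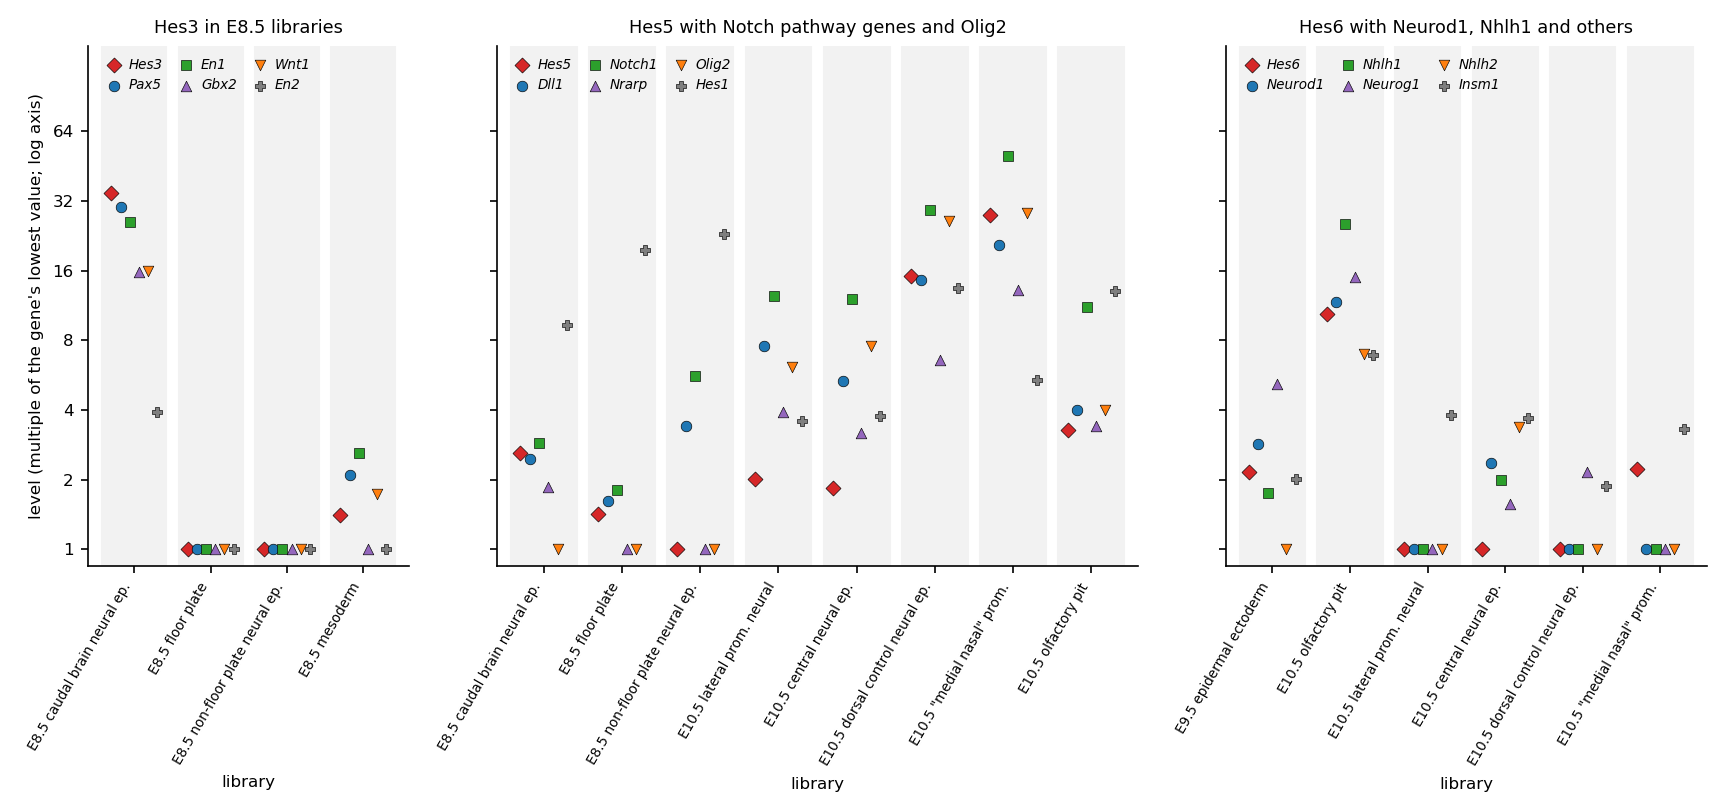
Levels on a log axis of Hes3, Hes5 and Hes6 beside selected genes, 1 marker per gene and 1 grey column per library, with no error because each region has 1 library. Hes3 shares caudal brain with Pax5, En1, Gbx2, Wnt1 and En2, Hes5 is highest where Notch1 and Dll1 are, and Hes6 is highest in the olfactory pit with Neurod1, Nhlh1 and Neurog1.

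Among the other Hes, Hey and Id repressors, 8 of 12 genes were measured and 6 tested between E10.5 and E8.5 neural epithelium. Hey1, a Notch target, was 3.66-fold higher at E10.5 (limma, adjusted p = 0.00669) and Id2, which holds bHLH activators off DNA, 4.77-fold lower (adjusted p = 0.016). Hes1, the other classical Notch target, did not pass (log2 difference -1.14, adjusted p = 0.192). Its levels were 9.33, 19.6 and 23.0 in the E8.5 neural libraries and 3.59, 3.75 and 13.4 at E10.5. Hes1 was thus highest in the non-floor plate epithelium, where Hes5 was at the floor, and both were high in the library titled dorsal control. In the olfactory pit Hey1 stood at 34.1, 5.92-fold above E10.5 neural epithelium (limma, adjusted p = 0.0301), and Id2 also passed (adjusted p = 0.0497).

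Other bHLH genes were above the floor in libraries where Neurog2, Neurod1 and Nhlh1 were not. Olig2, a bHLH factor of ventral progenitors, stood at 28.3 in the library labelled medial nasal, 26.2 in the library titled dorsal control, 7.53 in the library titled central, 6.11 in lateral prominence and 3.99 in the pit. It was at the floor in all 3 E8.5 neural libraries, so the E10.5 neural class was at least 6.11-fold above its floor, and it passed (limma, adjusted p = 0.0388). Olig2 thus met the filter only through E10.5 libraries, which fixed its direction in advance. It was 1 of 3 genes tested on a list of 17, of which 10 were measured.

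Neurog1, the relative of Neurog2 that acts in placodes and cranial ganglia, stood at 15.0 in the olfactory pit and 5.16 in epidermal ectoderm. In the E10.5 neural libraries it lay between 1 and 2.16, and the pit was 7.64-fold higher. Over E8.5 neural epithelium, at the floor throughout, the pit was at least 15.0-fold higher. Neurog1 met the filter of 3 libraries only with the pit counted, so its direction against E8.5 was fixed in advance. Nhlh2, the closest relative of Nhlh1, stood at 6.96 in the pit, 3.39 in the library titled central and 1.01 in epidermal ectoderm, and at the floor elsewhere. In the pit Neurog1, Neurod1, Nhlh1 and Nhlh2 thus all reached a level of 2, while Neurog2 was at the floor. Of the partners with which all these factors pair, Tcf4 was 2.497-fold higher in E10.5 than in E8.5 neural epithelium (limma, adjusted p = 0.023, and 0.0869 as deposited).

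**Figure D4:**
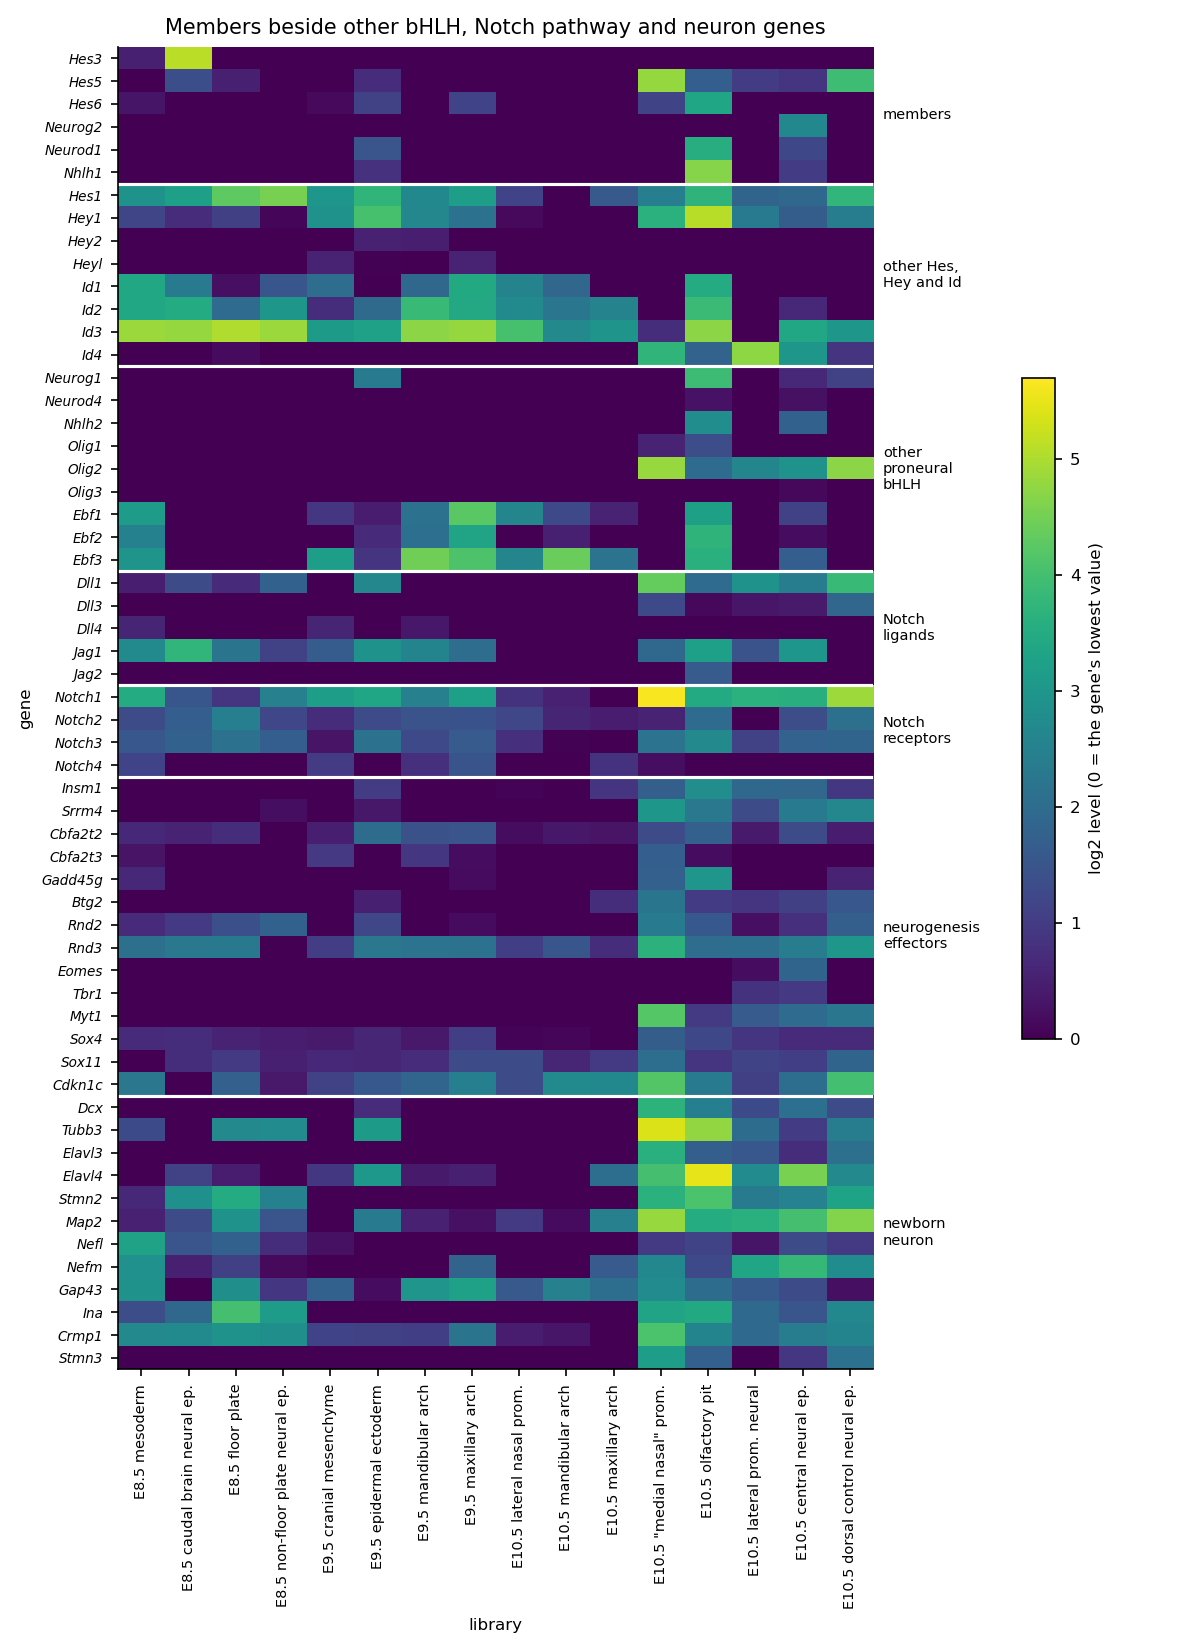
Heat map of log2 level (colour, 0 is the lowest value of the gene) for the 6 members and for other bHLH, Notch pathway, neurogenesis and newborn neuron genes (rows) in the 16 libraries (columns). The members fill few cells of the map, and the library labelled medial nasal and the one titled dorsal control carry the highest Olig2, Dll1 and Notch1 levels.

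Genes that act beside or after the proneural members were read in the same way. Of 14 neurogenesis effectors 10 were tested between E10.5 and E8.5 neural epithelium and 4 were higher, beside 6.66% of all genes tested. Insm1, Myt1 and Btg2 were at the floor in all E8.5 neural libraries and at least 1.88-fold, 3.13-fold and 1.83-fold above it at E10.5, and Srrm4 was 5.29-fold higher (limma, adjusted p from 0.00925 to 0.0301). Of 12 newborn neuron genes, 5 were higher, among them Elavl4 at 9.15-fold and Nefm at 8.57-fold. Dcx was at least 2.42-fold above the floor, as was Elavl3 at 1.67-fold or more, the latter with an adjusted p of 0.0505 as deposited. Insm1, Myt1, Btg2, Dcx and Elavl3 were at the floor in the E8.5 neural class, so they met the filter only through E10.5 libraries. That fixed their direction in advance, and the counts beside 6.66% are a description and no test of the lists. The median log2 difference was 1.44 for the tested effectors and 0.87 for the newborn neuron genes, beside 0.04 for all genes tested. Markers of red blood cells moved with the same classes, with a median log2 difference of 3.77 over the 4 of 7 tested. Of these Hba-a1 passed, at 5.99 to 8.57 against 1 to 4.02 (5.98-fold, limma, adjusted p = 0.0177), while Klf1 was at the floor in all 6 neural libraries. The part of these cells in the differences was not tested.

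Across libraries, newborn neuron genes were not restricted to those with proneural members. The library labelled medial nasal had 11 of 12 at a level of 2 or more, where 23.1% of the floor genes were. Neurog2, Neurod1 and Nhlh1 were at the floor there. The olfactory pit had 12 of 12 (25.1% of the floor genes), with Elavl4 at 44.8, Tubb3 at 27.4 and Dcx at 5.54. Each E10.5 neural library had 10, where the share of floor genes ran from 10.4% in lateral prominence to 16.5% in the library titled dorsal control. Some genes of the list are not floor genes. Insm1, a zinc finger factor of newborn neurons, was highest in the pit at 6.94. So was Gadd45g, a cell cycle inhibitor, at 7.89. Epidermal ectoderm, the other surface tissue with Hes6, Neurod1 and Nhlh1 above the floor, had 4 of 12 newborn neuron genes at a level of 2 or more. Its share of floor genes was 23.6%, so this count is not read as a result. All 4 E8.5 libraries, with no proneural member above the floor, had more. Floor plate had 8, caudal brain and mesoderm 6 each and the non-floor plate epithelium 5. The share of floor genes was 20.8% in caudal brain and is not given here for the others. The Elavl4 level of epidermal ectoderm was 8.20 and its Tubb3 level 8.63.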

How the data were processed

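Each of the 16 samples has 1 table with 1 value per gene. The values are a ratio, worked out from the deposited files: every gene had been divided by its median over the 16 libraries by the authors, and the unit before that is not stated. Per the labels, RNA was purified with the ZR RNA MicroPrep kit and read as 50-base single-end reads at depths above 40000000. The submitters' processing notes name Bowtie, TopHat, TopHat2, Cufflinks and mm9, and no source used here gives versions, annotation or filters. Totals per library are unknown, so no counting interval was computed.

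A level is the ratio over the lowest ratio of the gene, and values within 1e-06 of the lowest count as at the floor. Libraries were centred on the median of 7082 genes whose lowest value was not shared. Classes were compared with limma 3.58.1 (R 4.3.3, mean-variance trend) in 7 libraries with 4 residual degrees of freedom, or 5 for the facial comparison. To pass, a gene needed 2-fold or more and an adjusted p under 0.05 (Benjamini-Hochberg). The method was tested on simulated data. The genes named are the 6 members, measured genes of the lists, and the 5 genes most like each member. Members and lists were chosen with earlier results of these data known. Alternatives were the values as deposited, no filter or a filter of 5 libraries, no trend, one fit over all 16 libraries, and each library left out in turn. The correlations of Hes and proneural genes without the highest Hes library were added after seeing the data. Some genes of the lists are not reported here. Figures used matplotlib 3.10.9.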

Additional observations from a re-analysis of the deposited data

Results flagged for a closer look

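Of the E10.5 facial libraries, 4 in number, the one labelled medial nasal prominence lay apart for 2 members. Hes5 stood at 27.87 there and Hes6 at 2.23, and the other 3 libraries were at the floor for both genes. A gap of this kind, tested against the 95% critical value of Dixon's test for 4 samples, flags about 1 in 20 groups by chance. In a group where 3 values share a floor, any value above it gives such a gap. Facial mesenchyme markers were near or at their lowest value in the same library, as given above, and the part of this in the 2 levels was not tested.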

How the results depend on the processing

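The number of genes that passed for the olfactory pit against E10.5 neural epithelium was 194, and became 645 on the values as deposited, 400 with no filter and 77 in one fit over all 16 libraries. Against E8.5 neural epithelium the 47 became 252 with no filter, 22 with the filter at 5 libraries, 80 with no trend and 96 in one fit. For E10.5 neural against facial libraries the 0 became 14 in one fit. With each library left out in turn, the counts ranged from 648 (without caudal brain) to 1715 for E10.5 against E8.5 neural epithelium, where 1656 passed, and fell to 727 without the non-floor plate and 1001 without the library titled central. They ranged from 6 (without caudal brain) to 231 for the pit against E10.5 neural epithelium, from 1 (without caudal brain) to 56 against E8.5, and from 0 to 583 (without the library labelled medial nasal) for the facial comparison. Without the library titled dorsal control the Hes5 difference changed sign for the pit against E10.5 neural epithelium (0.31) and for E10.5 neural against facial libraries (-0.42). In no setting run did Hes5 pass in any of the 4 comparisons. The causes of these changes were not tested.

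For Hes5 in E10.5 against E8.5 neural epithelium, the log2 difference ran from 1.31 to 1.68 over the other settings and from 0.75 to 2.16 with a library left out, with adjusted p from 0.166 to 0.351. With a library left out, it ran from -1.10 to 0.31 for the pit against E10.5 neural epithelium, from 0.84 to 1.39 against E8.5, and from -0.42 to 1.49 for the facial comparison. No paired analysis was possible because the labels give no replicate numbers that groups share. Depth per library is unknown, and a gene at the floor may still be expressed below it.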
